A study of Mus musculus with 192 samples.

Results

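Exon start-site windows are 150 bp stretches of the mouse genome, on build mm9, in which the 5′ ends of RNA were found inside an annotated exon and away from an annotated transcription start. They were taken as every window that the deposited GENCODE annotation classed as exon, which gave 177982 of 553094 windows (32.2%). The windows came from single mouse embryonic fibroblasts (connective-tissue cells grown from embryos, strain C57BL/6), profiled by single-cell start-site sequencing of polyadenylated RNA. The labels give a naive group of 96 cells and a pretreated group of 96 cells (spelled Preteated in the titles), and do not say what the pretreatment was. Both groups were stimulated with interferon-beta, a secreted antiviral signalling protein, at 100 U/ml for 1 h. The series aimed at finding alternative start sites in interferon-stimulated fibroblasts. Each deposited sample is 1 cell and no culture, plate or animal is named, so each group counts as 1 sample. No test between groups was therefore possible, and the differences below have no replicate check.

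Start-site sequencing reads the first bases of capped RNA, and most of its signal is expected at promoters, where RNA polymerase begins a transcript. A 5′ end inside an exon can mark an alternative start, an RNA cut and capped again, or a copy made from a broken RNA, and the reads alone do not separate these. A start in the first exon leaves most of the coding sequence in place, whereas one in an internal or last exon would give a shortened RNA.

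Some exon windows lay where another annotation puts the transcript start, and the sequences around such annotated starts are given here. The exon class begins 100 bp after a GENCODE start, since windows from 1000 bp before to 100 bp after a start were classed as promoter. Among the windows listed in 10 or more cells, 16 in the first exons of 9 genes lay with their centre within 20 bp of a RefSeq start. For 6 of these genes RefSeq gave a single promoter, whose start was as far from the GENCODE start in the deposited tables as in the reference annotation. Their sequences from RefSeq (build GRCm38.p6) run from 40 bases before the start, in lower case, to the first 20 transcribed bases, in capitals, read 5′ to 3′ on the strand of the gene. The capitals mark the RefSeq start, and the sequence of the windows themselves was not read.
Nupr1: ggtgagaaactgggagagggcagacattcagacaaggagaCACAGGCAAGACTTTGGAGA
Ube2r2: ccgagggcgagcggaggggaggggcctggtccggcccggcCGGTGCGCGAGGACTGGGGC
Acyp2: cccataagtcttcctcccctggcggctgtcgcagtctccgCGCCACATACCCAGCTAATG
Stub1: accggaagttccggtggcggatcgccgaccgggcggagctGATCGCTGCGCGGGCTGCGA
Ndufa10: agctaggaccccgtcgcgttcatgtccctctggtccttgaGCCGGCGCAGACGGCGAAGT
Cisd1: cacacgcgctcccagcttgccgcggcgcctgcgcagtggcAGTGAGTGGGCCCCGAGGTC

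On GRCm38.p6 these stretches lie at chr7:126625451-126625510 on the minus strand (Nupr1, a stress-induced chromatin protein) and chr4:41135981-41136040 on the plus strand (Ube2r2, a ubiquitin-conjugating enzyme). The others, all on the minus strand, lie at chr11:30649377-30649436 (Acyp2, an acylphosphatase), chr17:25832900-25832959 (Stub1, a chaperone-linked ubiquitin ligase), chr1:92473739-92473798 (Ndufa10, a subunit of mitochondrial complex I) and chr10:71344830-71344889 (Cisd1, a mitochondrial iron-sulphur protein). The TATA box letters TATAAA, searched on both strands in the 40 upstream bases, were in 0 of the 6 and in 3.03% of all 32851 RefSeq promoters of this length. The Nupr1 window, 19 bp before the RefSeq start and 187 bp after the GENCODE start, was listed in 44 naive and 52 pretreated cells. It held 79.2% of the naive and 71.2% of the pretreated tags of the gene. The Ube2r2 window was listed in 7 naive and 22 pretreated cells, the Acyp2 window in 10 and 9, the Stub1 window in 6 and 9, the Ndufa10 window in 4 and 9, and the Cisd1 window in 9 and 1. In the same order, the centres of these windows lay at 5, -9, 1, 8 and -1 bp from the RefSeq start.

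After a filter on depth, 92 naive and 85 pretreated cells were kept. Total tags per kept cell had a median of 2305627.5 (305066 to 3857034) in the naive group and 2650490 (502374 to 13174313) in the pretreated group. A tag is 1 read, with no molecular identifier named, so every interval here covers counting error only. Of 11 fibroblast markers, 8 were listed in most cells of each group, and at least 1 was listed in every kept cell. The other markers were Pdgfra (33 naive and 24 pretreated cells), Dcn (4 and 2) and Thy1 (1 and 0), so Dcn and Thy1 were nearly absent from both groups. Endothelial markers were listed at 0 in both groups, epithelial markers in 0 naive cells and 1 pretreated cell, leukocyte markers in 8 cells of each group, neural markers in 12 and 23 cells, and muscle markers in 14 and 5 cells. In 1 naive cell and 1 pretreated cell, promoter windows held only 13.1% and 18.7% of the tags.

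Exon windows were the second most tagged class after promoters. They held 13.82% of the naive tags in peaks (25320310 tags, exact binomial 95% interval 13.819 to 13.829) and 12.65% of the pretreated ones (30675750 tags, 12.645 to 12.653). Per cell the share ran from 11.1% through a median of 13.98% to 20.3% in naive cells, and from 9.07% through 12.5% to 25.7% in pretreated cells. The ranges overlapped, and the pretreated cells reached both lower and higher than the naive ones. By number of peaks, exon windows made up 24.1% of naive and 25.2% of pretreated peaks, with a median of 1260 exon peaks per naive cell (875 to 1597) and 1649 per pretreated cell (616 to 2595). An exon peak was smaller than a promoter peak, with a median of 106 tags against 218 in naive and 108 against 220 in pretreated cells. Promoter windows held 66.5% of naive and 74.6% of pretreated tags.

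Exon peaks were sharper than promoter peaks, as were those of the other classes. The focus ratio, a fraction from 0 to 1, is the part of the tags of a peak that lies close to its main position. Its median over exon peaks was 0.978 in naive and 0.970 in pretreated cells, against 0.959 and 0.902 over promoter peaks. Intron peaks had medians of 0.983 and 0.980, intergenic peaks 0.983 and 0.978, and peaks at transcript ends 0.976 and 0.967, so exon peaks did not stand apart from these. Cell by cell, the median of exon peaks ran from 0.933 through 0.9805 to 0.989 in naive cells and from 0.941 through 0.970 to 0.984 in pretreated cells. The groups overlapped, and they overlapped less for promoter peaks, whose cell medians ran from 0.892 through 0.9615 to 0.977 and from 0.846 through 0.901 to 0.964. Peaks with a focus ratio of at least 0.9 were 80.7% of naive and 68% of pretreated exon peaks.

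**Figure D1:**
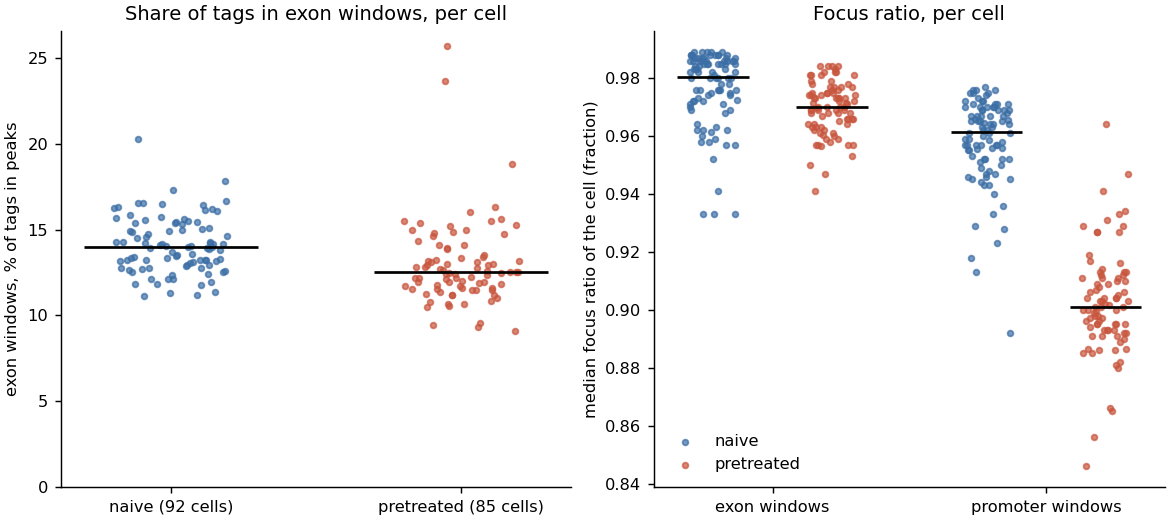
Left, share of each cell's tags in exon windows (%); right, median focus ratio (fraction) of each cell's exon and promoter peaks; each point is 1 kept cell and each line the median. The naive and pretreated exon shares overlap around medians of 13.98% and 12.5%, and exon peaks have higher focus ratios than promoter peaks in both groups.

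By number, exon peaks lay closer to the split of exonic bases than by tags, and first exons were above their share of bases by both. In transcripts with 2 or more exons, first exons held 10.1% of naive and 11.5% of pretreated exon peaks, while they made up 7.48% of the exonic bases of 13744 transcripts after 100 bp were trimmed from both ends. The tags leaned further towards first exons, with 20.7% in naive and 24% in pretreated cells. Internal exons held 42.4% of the bases, 42.6% and 39.8% of the peaks, and 37.6% and 34.4% of the tags. Last exons, which carry most 3′ untranslated sequence, held 50.1% of the bases, 47.3% and 48.7% of the peaks, and 41.8% and 41.6% of the tags. The last-exon difference between groups is a fall of tags and a gain of peaks, so its direction depends on what is counted.

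**Figure D2:**
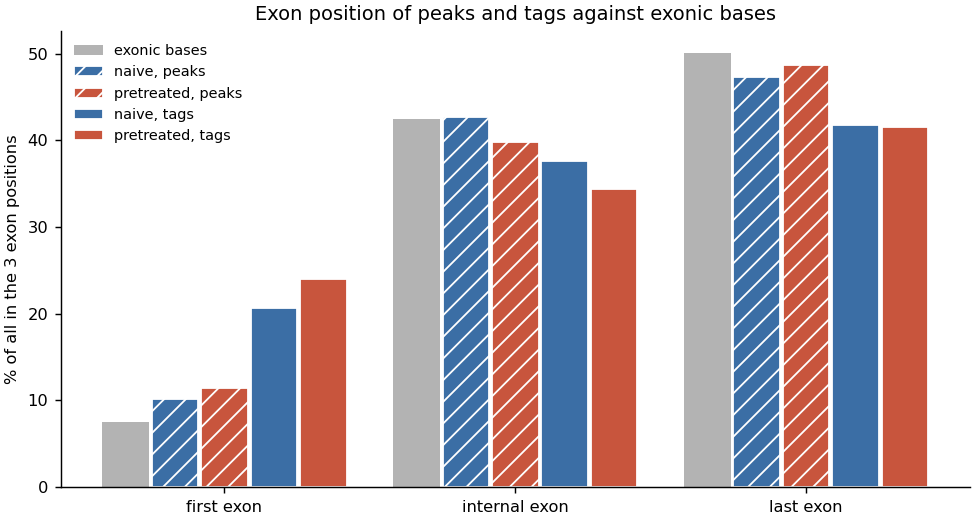
Share (%) of exonic bases, of exon peaks (hatched) and of exon tags (plain) in first, internal and last exons of multi-exon transcripts, for naive and pretreated cells. First exons hold 7.48% of the bases but 20.7% and 24% of the tags, and last exons 50.1% of the bases but 41.8% and 41.6% of the tags.

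The RefSeq annotation of the same windows gave a similar picture of where the tags lie. Coding exons held 49.9% of naive and 47.7% of pretreated exon-window tags, 3′ untranslated exons 26.2% and 25.2%, and 5′ untranslated exons 11.6% and 16.3%. Windows that RefSeq places at a promoter held 5.06% and 4.44%. The 5′ untranslated share was the class that differed most between the groups by tags. By number of peaks it was 5.26% and 6.23%. The leading windows of S100a6 and Naca, whose site tags are given with the distances below, are in this class.

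Nearly all exon tags ran in the direction of the gene. Strand could be set against the named transcript for 156459 windows (87.9%). Sense tags were 97.37% in naive and 95.98% in pretreated cells, so antisense tags were 2.63% and 4.02%. Antisense tags were fewest in first exons (0.839% and 1.13%) and higher in internal exons (2.45% and 4.59%), last exons (3.47% and 5.07%) and single-exon transcripts (6.14% and 10.2%). Promoter windows, where divergent transcription runs away from the gene, had 12.5% and 13.5% of their tags on the opposite strand.

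Most listed exon windows lay far from any annotated start. The distance to the nearest GENCODE start had a median of 2650 bp over 175623 windows listed in a kept cell, with quartiles of -1609 and 10589 bp, and 27% lay before that start. First-exon windows lay at a median of 227 bp, internal-exon windows at 2727 bp and last-exon windows at 4417 bp. Windows 0 to 200 bp past a start held 12.9% of naive and 13.2% of pretreated exon tags. Those 200 to 500 bp past a start held 9.77% and 13.3%, which was the distance range that differed most by tags. By number of peaks this range hardly differed, with 6.60% of naive and 6.88% of pretreated exon peaks. It held 2473452 naive and 4091580 pretreated tags. The first-exon site of S100a6, 188 to 290 bp past its start, held 123552 and 503587 tags. That of Naca, 225 to 293 bp past its start, held 219410 and 455218. How far these sites carry the difference of the range was not tested.

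Few exon windows came back in many cells. Of the 175623 listed windows, 142342 (81.05%) were listed in 1 cell, 32017 in 2 to 9 cells and 1264 (0.720%) in 10 or more, which are called recurrent here. The same share was 6.81% for promoter windows, 0.316% for intron windows and 2.18% for all windows. The recurrent windows held 27.8% of naive and 25.2% of pretreated exon tags. They fell in 522 last, 377 internal, 319 first and 46 single exons, and in the first exons 303 of 319 lay within 500 bp of a start. Of 1118 with a known strand, 1009 were sense and 109 (9.75%) antisense. In all, 200 lie in transcripts with a near-identical stretch in another gene, so that their reads may come from either.

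Most genes with a recurrent window had a single one. The windows came from 644 genes, of which 427 had 1 such window and 34 had 5 or more. Sparc, a collagen-binding matrix protein, had 13, and Bgn (the proteoglycan biglycan), Col3a1 (a fibrillar collagen) and Rpl8 (a protein of the large ribosomal subunit) had 10 each. Cd34 and S100a6 had 9 each and the chemokine gene Cxcl12 had 8. These genes were picked after their counts were seen.

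The window in the most cells lay in the last of 6 exons of Rpl8 (chr15:76736570-76736719, plus strand, 2143 bp past the start). It was listed in 92 of 92 naive and 84 of 85 pretreated cells, at a lowest, median and highest level of 304, 949 and 4131 tags per 1000000 tags of the cell (CPM) in naive cells and 161, 915 and 4582 in pretreated cells. The groups overlapped throughout. Rpl8 has near-identical copies in the genome. The window held 72.1% of the naive and 57.4% of the pretreated tags of Rpl8, whose promoter windows were listed in 11 and 0 cells.

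The second window lay in the 3′ untranslated last exon of a 9-exon transcript of Rnf213, an interferon-responsive ubiquitin ligase and ATPase (chr11:119348369-119348518, plus strand). In all, 86 naive and 84 pretreated cells listed it, at 24.6, 252 and 1101 CPM in the naive cells that listed it and 55.1, 214 and 503 in the pretreated ones. The groups overlapped, and no near-identical copy was found. The third, 230 bp past the start of Dstn (chr2:143741212-143741361, plus strand), which encodes the actin-severing protein destrin, was listed in 81 and 71 cells and held 81.9% and 91% of the tags of the gene.

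Other windows in the top 10 of these transcripts, those that are protein-coding with 2 or more exons, by the sum of both groups' shares of cells were in Txn1 (thioredoxin, first exon, 57 and 84 cells, with near-identical copies), Tagln (the smooth-muscle actin-binding protein transgelin, first exon, 78 and 47 cells) and U2surp (a splicing factor, first exon, 66 and 49 cells). Within 50 bp, a peak was listed in 91 and 85 cells for Txn1, 85 and 57 for Tagln and 85 and 80 for U2surp. The Txn1 and U2surp gaps thus belong largely to single windows. Outside protein-coding multi-exon transcripts, the windows in the most cells were those of Srp19, a signal recognition particle protein (91 and 67 cells), and Tpm1, the actin-binding protein tropomyosin 1 (73 and 62 cells). Windows of Nupr1 and Lmna, the latter for the nuclear lamina, and 1 of a transcript with no gene symbol followed. The Srp19 window had a median of 1317 CPM in the naive cells listing it and 129 in the pretreated ones.

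The naive and pretreated cells were compared by the share of cells that list a window, and a gap of 20 percentage points or more was counted. Of the 1264 recurrent exon windows, 64 (5.06%) were listed in at least 20 points more of the pretreated cells, against 5.71% of recurrent windows of all classes. In the other direction 103 (8.15%) were listed in at least 20 points more of the naive cells, against 6.51% of all classes. This balance turned over when neighbouring windows were counted together. Cells often listed windows a few bases apart: of the 64 and 103 windows, 49 and 72 kept their gap when any peak within 50 bp was counted.

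Windows of 1 transcript and strand whose starts lay within 150 bp of the next were therefore also chained into sites. This gave 61471 exon sites, of which 51.7% were listed in 1 cell and 4883 (7.94%) in 10 or more. Of these, 438 (8.97%) were listed in at least 20 points more of the pretreated cells, against 17% of recurrent sites of all classes. In the naive direction 140 sites (2.87%) passed, against 3.93% of all classes. Without the sites of transcripts with a near-identical copy, the naive count fell to 81 and the pretreated count to 388. Both exon shares lie below those over all classes, and promoter sites had 25.4% and 3.75%. The classes were not matched for how widely their sites are listed. The median difference was 4.69 points towards the pretreated cells for exon sites and 9.68 points for promoter sites.

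Pretreated cells also had more peaks and a higher median depth, whose part in these counts was not tested beyond the following. With cells of 1500000 to 3500000 total tags only, where the median total was 2418651 in 55 pretreated cells and 2727518.5 in 64 naive cells, 489 of 3108 recurrent exon sites were higher in the pretreated direction and 148 in the naive. Compared with all kept cells, fewer exon sites recurred (3108 against 4883). The counts nevertheless rose, from 438 to 489 in the pretreated direction and from 140 to 148 in the naive. What raised them was not tested. The floor of 10 cells was kept for fewer cells, so it asked for a larger share of them. Shares over all kept cells and over this depth range are therefore not alike in measure. The shares were larger, 15.7% and 4.76% of exon sites against 23.6% and 5.74% of sites of all classes. For windows they were 9.68% and 16.3% of 713 exon windows against 10.5% and 11.6% of all classes. The pretreatment and any other difference in the handling of the 2 sets of cells cannot be told apart.

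**Figure D3:**
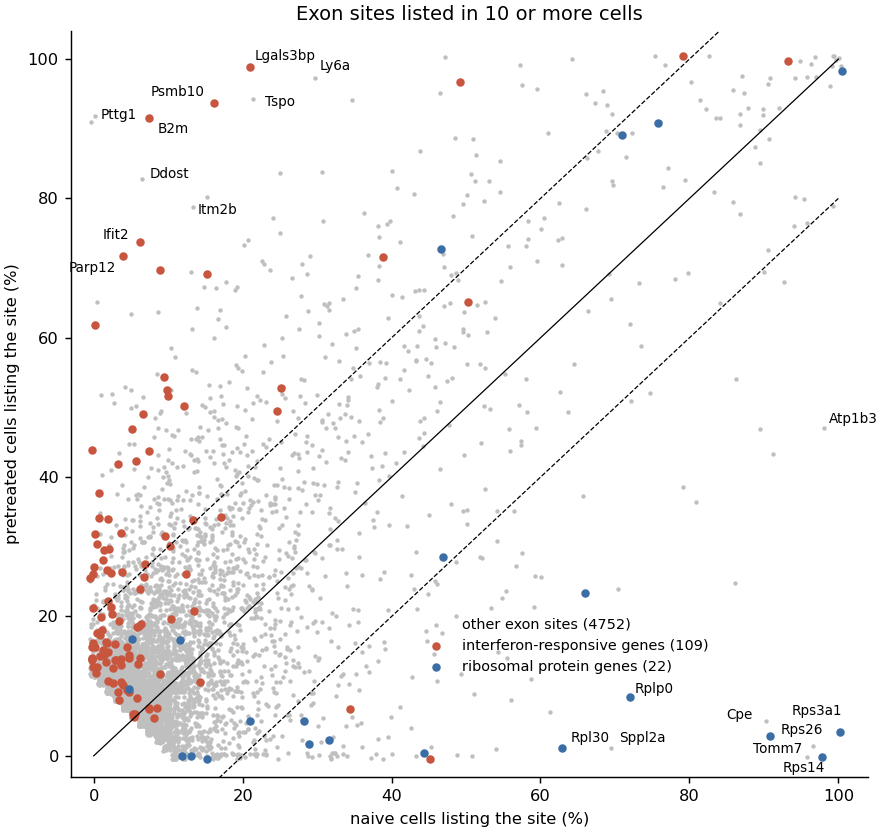
Share of naive cells (x axis, %) and of pretreated cells (y axis, %) that list each of the 4883 recurrent exon sites, with sense sites of interferon-responsive genes in red and of ribosomal protein genes in blue; points are shifted by up to 0.5 points to show overlaps. The solid line marks equal shares and the dashed lines a gap of 20 points; most red points outside the dashed lines lie above them and most blue ones below.

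Exon sites of interferon-responsive genes were mostly listed in more of the pretreated cells. Of 109 recurrent sense exon sites in 46 of the listed genes, 44 (40.4%) in 30 genes were higher in the pretreated cells by 20 points or more and 2 in the naive cells, against 372 (8.89%) and 122 (2.91%) of all 4186 sense exon sites. This list and those below were written with earlier results of these data known, so such contrasts are descriptive only. Of the 44 sites, 24 lay in last, 16 in internal and 4 in first exons, and 36 were in transcripts with no near-identical copy. The promoter windows of the gene were also listed in a larger share of the pretreated cells for 37 of the 44. Counted as single windows, 5 of 28 recurrent ones of the list were past 20 points in the pretreated and 2 in the naive direction. Over all matched genes this was 41 and 82 of 1009. A last-exon window of Rtp4 was among the 2, listed in 38 and 16 cells (39 and 23 within 50 bp).

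In antigen presentation, B2m, the light chain of MHC class I, had a site in the last of its 4 exons (chr2:121978315-121978793, plus strand). It was listed in 7 naive cells, at 16.8, 29.3 and 57.2 CPM (lowest, median and highest), and in 78 pretreated cells, at 19.4, 86.4 and 206. The levels overlapped, but 91.8% of pretreated against 7.61% of naive cells listed it. A site in exon 2 of B2m was listed in 73 and 85 cells. B2m promoter windows were listed in 91 naive and 85 pretreated cells at 249 and 2286 CPM over the group, so the promoter was already listed in nearly all naive cells.

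The immunoproteasome subunit gene Psmb10 had a first-exon site (chr8:108461848-108462257, minus strand, 110 to 370 bp past the start). It was listed in 15 naive cells at 19, 96.1 and 247 CPM and in 80 pretreated cells at 22, 147 and 3563. This site held 30.2% of the naive and 72% of the pretreated tags of Psmb10, whose promoter windows were listed in 1 cell of each group. H2-D1 and H2-K1, heavy chains of MHC class I, had internal-exon sites listed in 14 and 59 cells (H2-D1, with near-identical copies) and in 1 and 32 cells (H2-K1). A last-exon site of Psmb8, another immunoproteasome subunit, was listed in 0 and 22 cells.

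Among antiviral effectors, Ifit2, an RNA-binding inhibitor of translation, had an exon 2 site (chr19:34644686-34644883, plus strand) in 6 naive cells at 22.9, 56.2 and 186 CPM and in 63 pretreated cells at 21.5, 264 and 1437. It held 17.9% of the naive and 82.6% of the pretreated tags of Ifit2. The last-exon site of Ifit1 spanned 2276 bp and was listed in 45 and 82 cells, and that of Ifit3 in 11 and 43 (with near-identical copies). Over the group, the Ifit3 site was nevertheless at 69.4 CPM in naive and 20.3 in pretreated cells. Last-exon sites of the GTPase genes Igtp, Gbp2 and Gbp3 were listed in 8 and 59, 3 and 36, and 0 and 26 cells, Igtp with a near-identical copy.

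The secreted glycoprotein gene Lgals3bp had a last-exon site of 1393 bp, made of 104 chained windows (chr11:118254104-118255496, minus strand). It was listed in 19 naive cells at 21, 57.7 and 185 CPM and in 84 pretreated cells at 95.6, 298 and 1554. Lgals3bp promoter windows were listed in 21 and 84 cells. Parp12 and Parp14, antiviral ADP-ribosyltransferases, had last-exon sites listed in 4 and 61 and in 9 and 44 cells.

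Among signalling genes, the last exon of Usp18, which removes ISG15 and dampens interferon signalling, held a site listed in 6 and 42 cells. The naive direction held 1 site each of Samd9l and Iigp1. A first-exon site of Samd9l, an antiviral regulator of translation with a near-identical copy, was listed in 42 and 0 cells, while its last-exon site was listed in 9 and 45. An exon 2 site of the GTPase gene Iigp1 was listed in 32 and 6 cells, while a last-exon site was listed in 23 and 42. Thus within Samd9l and within Iigp1, exon sites differed in opposite directions.

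**Figure D4:**
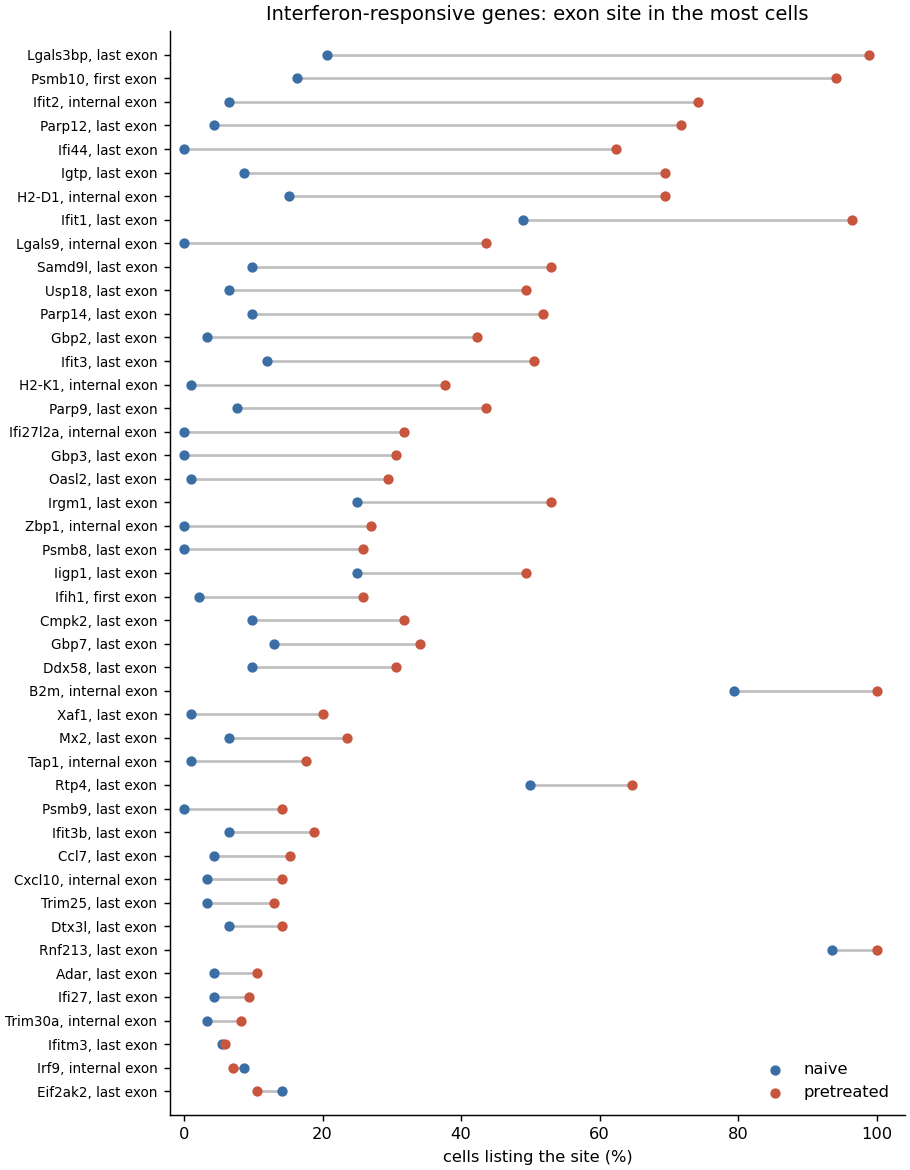
For 45 of the 46 interferon-responsive genes with a recurrent sense exon site, the share of naive and of pretreated cells (%) that list its site found in the most cells; each gene is 1 row and the grey line joins the groups. The pretreated share is the larger in every row except Irf9 and Eif2ak2, with the widest gaps for Lgals3bp and Psmb10.

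Exon sites of ribosomal protein genes differed the other way. Of 22 recurrent sense exon sites in 14 genes, 10 (45.5%) were listed in at least 20 points more of the naive cells, against 2.91% of all sense exon sites. In the pretreated direction there was 1 (4.55%), in exon 5 of Rpl8, against 8.89%. All 10 lie in transcripts with near-identical copies elsewhere, so their reads may come from processed pseudogenes as well as the named gene. Of all recurrent exon sites, 59 of 582 in transcripts with a copy passed in the naive direction, against 68 of 3753 without one. Rps14 exon 2 was listed in 90 and 0 cells, Rps26 exon 2 in 84 and 2, Rplp0 exon 2 in 66 and 7 and Rpl30 exon 3 in 58 and 1. The promoter windows of these genes showed no such gaps. They were listed in 85 and 82 cells for Rps14, 8 and 11 for Rps26, 12 and 20 for Rplp0 and 86 and 81 for Rpl30.

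The Rps3a1 site lay at the border between the exon and promoter classes. Its first-exon site, 101 to 108 bp past the start (chr3:85946442-85946598, minus strand), was listed in 92 naive cells at 157, 2569 and 5330 CPM and in 3 pretreated cells at 21.8, 25.1 and 108. The ranges did not overlap. Its promoter windows, which end at 100 bp, were listed in 0 naive and 80 pretreated cells, at 279 CPM over the pretreated group. Within 50 bp of the leading window, a peak of either class was listed in 92 naive and 70 pretreated cells.

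Extracellular matrix genes, the main secreted products of fibroblasts, held more of their tags in exons than the other lists. Exon windows took 45.9% of the naive and 38% of the pretreated tags of these genes, against 16.2% and 14.4% over all genes with a known strand. Of 162 recurrent sense sites in 28 genes, 26 (16%) were listed in at least 20 points more of the pretreated cells, against 8.89% of all sense exon sites. The naive direction held 3 (1.85%), against 2.91%. Serpinh1, a collagen chaperone, had a last-exon site (chr7:106493953-106494631, minus strand) listed in all 92 naive cells at 22.3, 133 and 616 CPM and in all 85 pretreated cells at 25.9, 105 and 337. The groups overlapped throughout. It held 78.7% and 77.2% of the tags of Serpinh1, whose promoter windows were listed at 0.

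Timp3, an inhibitor of matrix metalloproteinases, was listed as often but at other levels. The site in its last exon (chr10:85810620-85812137, plus strand, 3′ untranslated) was listed in 91 naive cells at 64.9, 1023 and 6118 CPM and in 82 pretreated cells at 20.4, 225 and 1483. The ranges overlapped, and 83 naive but 34 pretreated cells were at 300 CPM or more. It held 53.2% and 31.1% of the tags of Timp3, whose promoter windows were at 990 and 565 CPM. A single window of this site, chr10:85811151-85811300, was listed in 89 and 46 cells with a median focus ratio of 0.992 and 0.690.

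Fbln5, an elastic-fibre protein, had the widest gap of the matrix list. Its first-exon site was listed in 32 and 80 cells and held 43.9% and 72.1% of its tags, and its last-exon site was listed in 19 and 62 cells. Timp1 exon 2 was listed in 37 and 71 cells, and the last exon of Col5a2 in 25 and 58. Sites in the naive direction were in Col12a1 (53 and 25 cells), Mmp2 exon 9 (45 and 24) and Col6a3 exon 36 (33 and 13). Col3a1 and Col6a1 had last-exon sites in 82 and 74 and in 83 and 75 cells, gaps under 3 points.

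Cytoskeletal and contractile genes had sites past 20 points in both directions. Of 97 recurrent sense sites in 33 genes, 11 (11.3%) were higher in the pretreated direction and 10 (10.3%) in the naive direction, against 8.89% and 2.91% of all sense exon sites. The pretreated share is thus near that over all sites. The last exon of Cald1, which encodes the actin-binding protein caldesmon, was listed in 23 and 71 cells, and that of Anxa5, a phospholipid-binding annexin, in 13 and 55. In the naive direction, exon 3 of the smooth-muscle actin gene Acta2 was listed in 51 and 20 cells and the first exon of Tagln in 85 and 58. The last exons of Tuba1b and Tuba1c, for alpha-tubulins with near-identical copies, were listed in 45 and 0 and in 30 and 0 cells.

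S100a6, a calcium-binding protein, shows a shift of position within 1 site. Its first-exon site, 188 to 290 bp past the start (chr3:90416930-90417181, plus strand), was listed in 91 naive cells at 36.1, 560 and 1623 CPM and in 85 pretreated cells at 241, 1743 and 4223. The ranges overlapped. The window at 290 bp was listed in 1 naive and 64 pretreated cells, whereas the window at 258 bp was listed in 46 and 0. The site held 79.9% and 83.7% of the tags of S100a6. Higd1a, a mitochondrial protein induced by low oxygen, and Naca, a ribosome-associated chaperone subunit, showed the same kind of change in transcripts with near-identical copies. Their leading windows were listed in 75 and 0 and in 6 and 54 cells, but their first-exon sites in 92 and 84 and in 92 and 85.

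In 3 further lists the share of sites in the naive direction was above the 2.91% of all sense exon sites. In the pretreated direction, the translation factor list and the chaperone and glycolysis list lay below the 8.89%, on few sites each. The RNA-binding and splicing factor list was near it. Of 39 translation factor sites, 1 (2.56%) was past 20 points in the pretreated and 4 (10.3%) in the naive direction, the latter in Eef1g, Eef2 and Pabpc1, all with near-identical copies. Of 68 sites of chaperone and glycolysis genes, 3 (4.41%) and 9 (13.2%) were past 20 points. In the naive direction, 5 sites were in the glycolytic gene Pkm, with exon 6 listed in 40 and 0 cells, and 2 in Calr, the calcium-binding chaperone calreticulin, with exon 8 listed in 55 and 22. Pkm also had 1 of the 3 sites in the pretreated direction. Of 37 sites of RNA-binding and splicing factor genes, 3 (8.11%) and 4 (10.8%) were past 20 points. Replication-dependent histone genes, whose RNA mostly lacks a poly(A) tail, had 2 recurrent sites, with 0 past 20 points in either direction.

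Outside the lists, among multi-exon protein-coding transcripts, the widest gap towards the pretreated cells was in Pttg1, the securin gene of chromosome separation. Its first-exon site, 270 to 273 bp past the start (chr11:43239118-43239270, minus strand), was listed in 0 naive and 77 pretreated cells, at 23, 102 and 464 CPM in the latter. Pttg1 promoter windows were listed in 5 and 6 cells. Ddost, a subunit of the oligosaccharyl transferase, had a first-exon site in 6 and 70 cells. Among other transcripts, a site in the last exon of a 2-exon transcript with no matched gene symbol (chr1:24621069-24621384, minus strand, unmatched in the reference) was listed in 0 and 78 cells. This transcript was not searched for near-identical copies, so whether its reads may come from another locus is not known. Last-exon sites of Tspo, Ly6a and Itm2b were listed in 20 and 80, 27 and 83, and 12 and 67 cells.

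Towards the naive cells, Cpe, the prohormone-processing carboxypeptidase E, had an exon 4 site (chr8:67090137-67090353, minus strand) 81559 to 81626 bp past the nearest start. This site was listed in 83 naive cells at 22.2, 99.7 and 462 CPM and in 4 pretreated cells at 21.6, 24 and 47.8. The ranges overlapped. An exon 2 site of Cpe was listed in 79 and 21 cells, and no near-identical copy of the transcript was found. A last-exon site in a non-coding processed transcript of Gins1, a subunit of the replicative helicase complex, was listed in 88 naive cells at 23.6, 36.7 and 67.7 CPM and in 0 pretreated cells. The last exon of the mitochondrial import gene Tomm7, with near-identical copies, was listed in 89 and 1 cells and that of Rarg, a retinoic acid receptor with no such copy, had a window in 78 and 2.

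Atp1b3, a subunit of the sodium pump, had levels that differed widely among cells. The last-exon site of Atp1b3, in a transcript with a near-identical copy, was listed in 90 naive cells at 27.8, 71.1 and 12735 CPM and in 40 pretreated cells at 17.3, 96.7 and 3020. Of the naive cells, 37 were at 300 CPM or more and 0 between 150 and 300, and of the pretreated cells 18 and 1. Both groups held cells at high and at low levels, with few or none between.

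**Figure D5:**
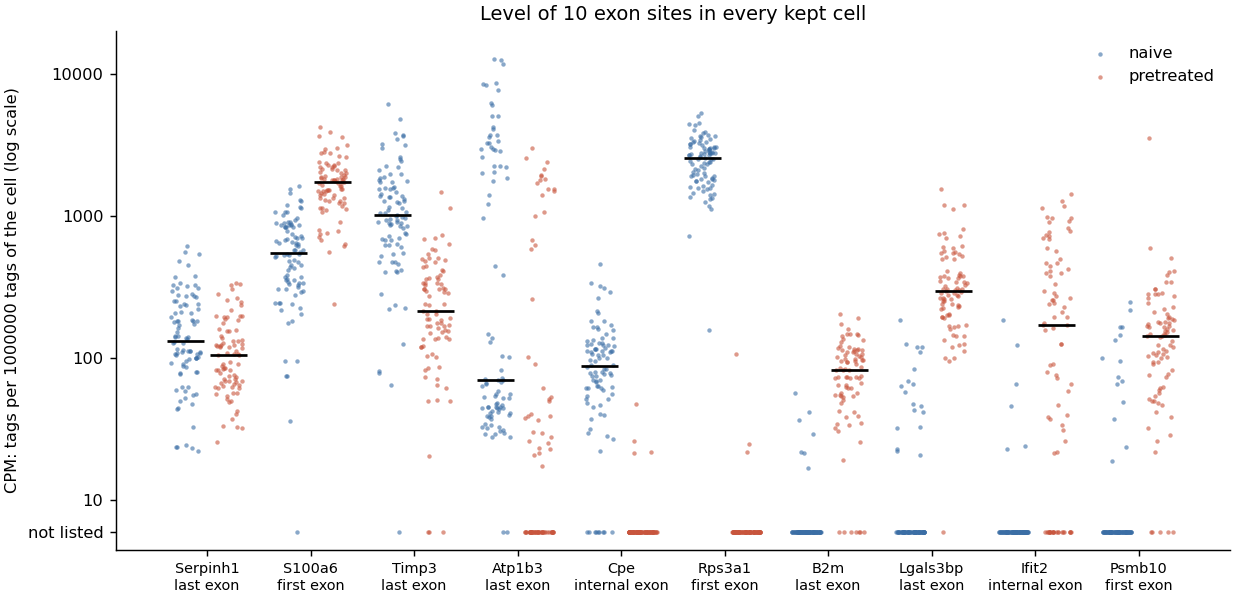
CPM at 10 exon sites in each of the 92 naive and 85 pretreated cells; cells that do not list the site are on the bottom row, and a line marks the median over all cells where most cells list it. B2m, Lgals3bp, Ifit2 and Psmb10 are listed mostly in pretreated cells, Rps3a1 and Cpe mostly in naive cells, and Atp1b3 splits into high and low cells.

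Antisense exon windows were few but some recurred widely. The one in the most cells lay in the 3′ untranslated last exon of Cavin1, a coat protein of caveolae, on the plus strand (chr11:100819424-100819573). The window was listed in 86 naive cells at 21.6, 56 and 187 CPM and in 62 pretreated cells at 24.2, 92.8 and 313. The levels overlapped. Within 50 bp, 87 and 81 cells listed a peak. An antisense window in exon 3 of Ltbp1, a binding protein of latent TGF-beta (chr17:75626438-75626587), was listed in 77 and 55 cells, and one in the last exon of Tubb5, a beta-tubulin (chr17:35970925-35971074), in 64 and 11. For Tubb5 the counts within 50 bp were 64 and 58, so the gap belongs to the single window. An antisense window in exon 7 of Thbs1, the matrix glycoprotein thrombospondin 1 (chr2:117941584-117941733), was listed in 16 and 54 cells, and in 16 and 58 within 50 bp.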

How the data were processed

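Start-site peaks were deposited cell by cell. HOMER's start-site mode was run on each strand separately, per the file headers. The peak value that the authors deposited is a signal, meaning tags after scaling every cell to a total of 10000000. The deposited focus ratio is a fraction from 0 to 1. Bowtie2, HOMER and build mm9 are named in the submitters' processing notes. Read filters and duplicate handling are not given in the sources used here.

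Signal was turned back into tags with the header totals; all 1082504 peaks came out whole (within 0.1 tag or the rounding of the file). Peaks joined the nearest window of the deposited annotation tables within 2 bp (1080791 joined, 1713 outside the tables). CPM is tags per 1000000 of the header total of the cell, or summed over the kept cells of a group. Cells under 10% of the median total (230562.75 tags) were left out, 4 naive and 11 pretreated. Strand and symbol came from GENCODE vM21 by transcript identifier (14850 of 16760 transcripts); its exon lengths gave the exonic bases. Near-identical copies are blastn (2.17.0+) matches of at least 95% identity over at least 100 bp to a transcript of another, non-overlapping gene. Transcripts unmatched in the reference, with 548 of the 4883 recurrent exon sites, were not searched. Intervals are exact (Clopper-Pearson, SciPy 1.17.1). The joining and chaining were tested on simulated peaks. A site that no peak covers is only not listed, and no fold is given against it.

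Windows were named by rank: the 10 with the largest summed share of cells, the 5 with the most tags and the 5 widest gaps per group, the top 3 antisense ones, the top 3 per gene list and the top 5 outside multi-exon protein-coding transcripts. Sites were named after their values were seen, from the 10 at each extreme and the gene lists. The members and lists were chosen with earlier results of these data known. A pair of deposited matrices with 384 unnamed columns was not used here. Sites of 1 listed gene are counted but not reported here by name.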

Additional observations from a re-analysis of the deposited data

How the results depend on the processing

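The exon share of tags (pretreated minus naive, -1.18 percentage points) was -1.17 with all cells, -0.956 with RefSeq exons, -1.46 as a median over cells, -1.06 without the most tagged window of each group and -1.27 without the 2 cells with under 40% of tags in promoter windows. The sense share (-1.38) was -0.904 by peaks and -1.42 without pseudogene transcripts. The last-exon share (-0.213) was -0.574 with single-exon transcripts counted as last, -0.521 without those 2 cells and 1.42, with the sign turned, by peaks. The focus difference (-0.008) was -0.01 with all cells, -0.012 for peaks of at least 50 tags and -0.03 weighted by tags. Recurrent windows (1264) numbered 4458 at 5 cells, 414 at 20 cells and 4883 after chaining. The low-promoter cells, depth and copy settings were chosen after seeing the data. Sites past 20 points in the naive direction (140) numbered 81 without transcripts that have a copy. The counts of windows past 20 points, and of sites in the pretreated direction, stayed within 1.5 times under those settings. With matched depth, where the floor of 10 cells was kept for fewer cells, the shares rose by more than that. They went from 5.06% to 9.68% and from 8.15% to 16.3% of windows and from 8.97% to 15.7% and from 2.87% to 4.76% of sites. No paired analysis was possible because the result comes from no test and cell numbers only name cells. Depth limits all absences: a site with too few tags for the peak caller is not listed in a cell.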
